A study of Mus musculus with 6 samples.

Results

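The J segments examined here are the 4 heavy chain segments *Ighj1*, *Ighj2*, *Ighj3* and *Ighj4* and the 4 functional kappa segments *Igkj1*, *Igkj2*, *Igkj4* and *Igkj5*, 8 of the 54446 genes in the deposited table, taken by symbol. RNA was sequenced from naive splenic B cells of *Tent5c* KO mice and their WT littermates, all on a mixed C57BL/6J X CBA background and 12 to 15 weeks old, with 3 libraries of each genotype. KO and WT cells alike were kept for 7 days in culture with IL-4 (20 ng/ml) and LPS at 20 µg/ml, stimuli that drive B cells to divide, switch Ig class and develop towards plasma cells. Each replicate number, which the labels also give as the batch, is a KO and a WT littermate, referred to as pairs 1, 2 and 3. The allele is given only as a TENT5C KO, and the sex of the animal behind each library is not stated.

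An Ig gene is built in the developing B cell by recombination of V, D and J segments in the heavy locus and of V and J segments in the kappa locus. The J segment encodes the end of the variable domain and carries the splice donor through which the variable exon is joined to the constant exons. Joining by deletion removes the J segments that lie 5′ of the chosen J and leaves those on its 3′ side in the intron between the joined J and the constant gene, from which splicing removes them. *Igkj3*, which lies between *Igkj2* and *Igkj4*, is regarded as non-functional and is given below as a reference within the locus.

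The germline sequences are shown because they lie in the very short windows over which these values were counted and show how alike the segments are. They come from Gencode vM21 on GRCm38, the C57BL/6J genome, and are written 5′ to 3′ on the coding strand. Capitals mark the match to the conserved J motif, which in heavy segments is TGGGG, any 4 bases, GG and any base, and in kappa segments TTCGG followed in the same way. Both strands were searched, and no sequence can match both motifs at the same position.
Ighj1: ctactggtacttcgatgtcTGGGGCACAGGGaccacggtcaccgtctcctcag
Ighj2: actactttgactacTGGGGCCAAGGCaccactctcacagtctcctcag
Ighj3: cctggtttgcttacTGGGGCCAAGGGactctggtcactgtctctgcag
Ighj4: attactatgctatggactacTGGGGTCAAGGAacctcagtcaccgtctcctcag
Igkj1: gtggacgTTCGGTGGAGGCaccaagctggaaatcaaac
Igkj2: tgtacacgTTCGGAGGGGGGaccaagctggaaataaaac
Igkj3: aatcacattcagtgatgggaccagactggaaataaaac
Igkj4: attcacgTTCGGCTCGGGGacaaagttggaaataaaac
Igkj5: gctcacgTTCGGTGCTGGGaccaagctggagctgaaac
All 8 segments hold the motif of their locus, and the sequence of *Igkj3* does not. Of the 84 J transcripts of Ig and T cell receptor loci in the annotation, 8.33% hold the heavy motif and 22.6% the kappa motif. Over the last 48 bases the heavy segments were 62.5% to 75% identical to each other, with shared runs of 7 to 16 bases. Over the last 38 bases the kappa segments, *Igkj3* included, were 68.4% to 84.2% identical, with shared runs of 8 to 14 bases.

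The heavy segments lie on chromosome 12 of GRCm38, minus strand, *Ighj1* at 113429781 to 113429833, *Ighj2* at 113429468 to 113429515, *Ighj3* at 113429085 to 113429132 and *Ighj4* at 113428514 to 113428567. *Ighj4* is the segment closest to *Ighm*, the first constant gene, with 5783 bases between them, and *Ighj1* the farthest, with 7050. The kappa segments lie on the plus strand of chromosome 6, *Igkj1* at 70722562 to 70722599, *Igkj2* at 70722916 to 70722954, *Igkj4* at 70723548 to 70723585 and *Igkj5* at 70723886 to 70723923. *Igkj5* is the segment closest to the constant gene *Igkc*, with 2507 bases between them. A second annotated transcript widens the counted exon of *Ighj2* to 100 bases. The counted exons of *Igkj2* and *Igkj5* have 43 and 42 bases, against 39 and 38 in the sequences above. Those of the other segments are as shown above, at 38 to 54 bases.

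The reads were 75 nt long, so a read on any of these exons other than that of *Ighj2* is longer than the exon. The authors counted fragments, that is read pairs, by gene with featureCounts, without the option that counts a fragment for several genes. A fragment that also reaches an annotated V or constant exon may then be assigned to the J segment, to another gene or to none. How often each occurs was not examined. The values therefore hold only part of the fragments that reach a J exon. The shares given here are shares of these fragments, not of rearranged mRNAs. Whether the part of the fragments kept in this way is the same in KO and WT was not tested. The counts were low, between 29 and 326 fragments per J segment and library. A normalized count is a number of fragments divided by the size factor of its library, and all 8 segments reached the mean of 10 that was asked for and entered the fit. The animals carry part of the CBA genome, and reads that differ from the C57BL/6J sequence may be lost.

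Depth ranged from 5393558 to 6793520 fragments on genes. *Tent5c*, the targeted gene, had 1993, 993 and 1170 normalized counts in KO and 1255, 767 and 1584 in WT of pairs 1, 2 and 3, so that its level did not separate the genotypes and the groups rest on their labels (without replicate 1 the sign of its log2 fold change of 0.20 was the opposite, −0.03). All 8 B cell markers looked at passed the filter, with a summed level of 50665 to 58699 normalized counts in KO and 56171 to 57849 in WT. Of 10 T cell markers 1 passed, with a summed level of 47.7 to 122 in KO and 52.3 to 136 in WT, and of 10 myeloid markers 2 passed, with 20.0 to 131 and 64.8 to 90.3 and with *S100a8*, *S100a9*, *Fcgr1* and *Elane* at 0. None of 7 erythroid markers passed, and *Hbb-bs*, *Hba-a1* and *Hba-a2* were at 0 in the 6 libraries.

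In both loci the functional segment nearest to the constant gene had the most fragments and the farthest one the fewest, while those between did not follow that order in every library. *Ighj4* had the most fragments of the heavy segments in 6 of 6 libraries and *Ighj1* the fewest in 6 of 6, and in the kappa locus *Igkj5* had the most and *Igkj1* the fewest of the functional segments in 6 of 6. Per base of the counted exon, the mean level over the 6 libraries was 4.36 normalized counts for *Ighj4*, 2.64 for *Ighj3*, 1.56 for *Ighj2* and 1.5 for *Ighj1*. The order of *Ighj4* above *Ighj3*, and of *Ighj3* above the other 2, held in each of the 6 libraries, while *Ighj2* and *Ighj1* changed places between libraries. In the kappa locus the mean level per base was 6.60 for *Igkj5*, 6.25 for *Igkj4*, 5.36 for *Igkj2* and 3.79 for *Igkj1*. *Igkj5* and *Igkj4* changed places, with *Igkj4* the higher in the KO libraries of pairs 1 and 2, whereas *Igkj2* lay below both and above *Igkj1* in all 6. Because exons this short are counted over a window set mostly by the fragment length, dividing by the exon length favours the shortest exons, and the counted exon of *Ighj2* is about as long as those of *Ighj3* and *Ighj4* together.

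**Figure D1:**
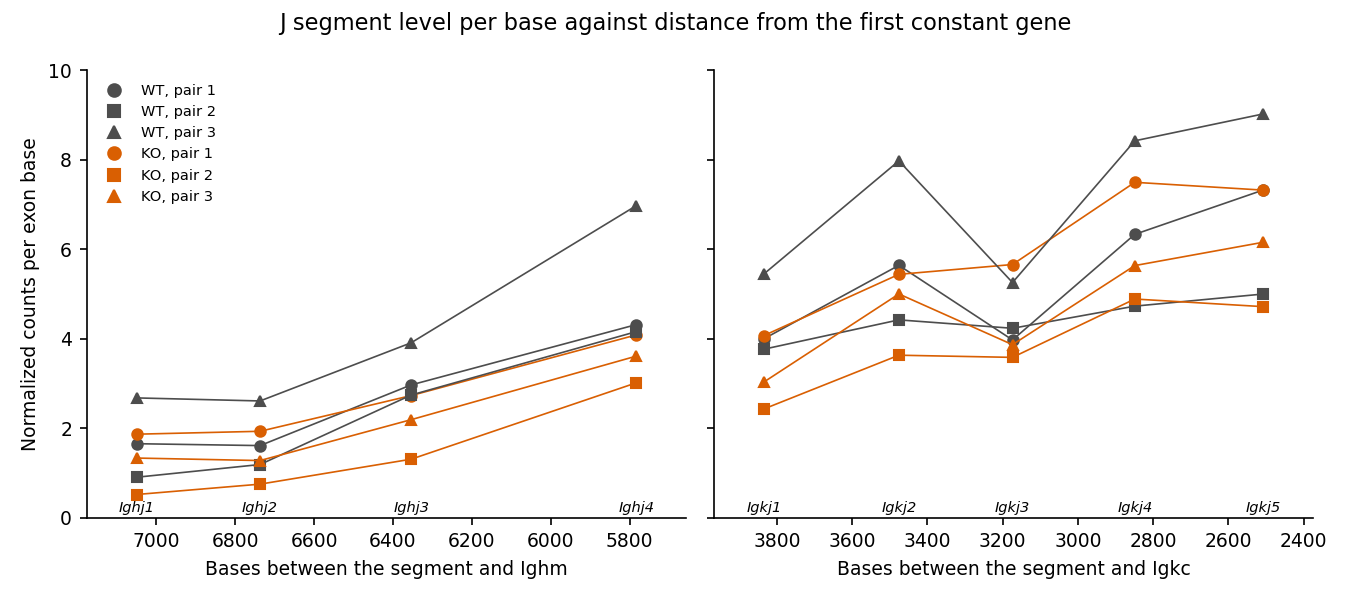
Normalized counts per base of the counted exon (y axis) of each J segment against the number of bases between it and *Ighm* (left) or *Igkc* (right), with 1 line for each of the 6 libraries, WT in grey and KO in orange. In every library the level is higher at *Ighj4* than at *Ighj1* and at *Igkj5* than at *Igkj1*, but it does not rise at every step: *Ighj1* and *Ighj2* lie close together and change places, as do *Igkj4* and *Igkj5*, and *Igkj3* lies below *Igkj2* in most libraries.

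*Igkj3* was counted at a level like that of the functional segments. Its normalized counts were 215, 136 and 147 in the KO libraries of pairs 1, 2 and 3 and 151, 161 and 200 in the WT libraries. That is above *Igkj1* in all 3 KO libraries and below it in the WT libraries of pairs 1 and 3. *Igkj3* amounted to 16.0 to 22.3 fragments for every 100 on the 4 functional kappa segments. The difference between genotypes in that ratio was within the spread between pairs, at a mean log2 ratio of 0.20 ± 0.25 (SD, n = 3 pairs; exact permutation *p* = 0.50 within pairs, two-sided). For comparison, the constant genes were at 18.2 to 70.1 normalized counts per base for *Igkc*, 8.07 to 32 for *Ighm* and 6.82 to 21.1 for *Ighg1*.

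The comparison of *Tent5c* KO with WT asks which transcripts depend on the poly(A) polymerase TENT5C. The 8 J segments had log2 fold changes below 0, from −0.67 to −0.10 with a median of −0.48, but 0 of 8 passed an adjusted *p*-value of 0.05. The whole table of 12322 genes that passed the filter had a median of 0.00067, and 49.8% of the genes were below 0. The test was limma on log2(normalized count + 1) with the replicate number as a block and Benjamini-Hochberg adjustment over all genes tested, a scale on which changes of low counts are understated. It called 0% of genes in either direction. At an unadjusted *p*-value under 0.05, 4 of 8 J segments were lower (*Ighj3*, *Ighj4*, *Igkj1* and *Igkj2*), where 3.03% of all genes were, and 0 of 8 higher, where 1.67% were. The 8 segments varied together over the libraries, as given further on. These counts, and those by pair below, are thus not counts of independent genes. The adjusted *p*-values of the 8 segments lay between 0.911 and 0.974 in limma. Without replicate 1, 2 of 8 passed it as lower (*Ighj2* and *Ighj3*), in a fit that called 1.36% of all genes lower. In edgeR, whose quasi-likelihood test was run on fragment counts, 0 of 8 passed, where 0% of all genes were called, and the same 4 segments were lower at an unadjusted *p* under 0.05 (2.99% of all genes lower, 1.62% higher). DESeq2, the test named in the methods of the study, called 0 of 8 J segments. Its shares are over the 9894 genes tested in it, fewer than in limma and edgeR, and it called 0.222% of these lower and 0.0101% higher. Unadjusted, it put 2 of the J segments, *Ighj3* and *Ighj4*, under 0.05 (1.79% of the 9894 genes lower, 0.273% higher).

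The J segments were not lower in all pairs to the same extent. In pair 1, 4 of 8 were lower in the KO library, where 53.2% of all genes were, and the median log2 ratio of the 8 was 0.01. In pair 2, 7 of 8 were lower (49.9% of all genes), with a median of −0.54. In pair 3, 8 of 8 were lower (49.5% of all genes), with a median of −0.83. Intervals of 95% for the ratio of 2 libraries, which cover counting error only, lay below 0 for 0 of 8 segments in pair 1, for 5 in pair 2 and for 8 in pair 3. The share of all genes with such an interval below 0 was not computed, so these counts do not set the J segments apart from other genes. The segments lower in all 3 pairs numbered 4 of 8 (*Ighj3*, *Ighj4*, *Igkj2* and *Igkj5*), beside 13.1% of all genes, and *Igkj5* counts among them only narrowly, with 326 fragments in both libraries of pair 1. Without replicate 3, 7 of 8 had a log2 fold change below 0, where 51.2% of all genes did, and the median of the 8 was −0.23. In bulk RNA, fewer cells with a transcript and less of it per cell cannot be told apart.

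**Figure D2:**
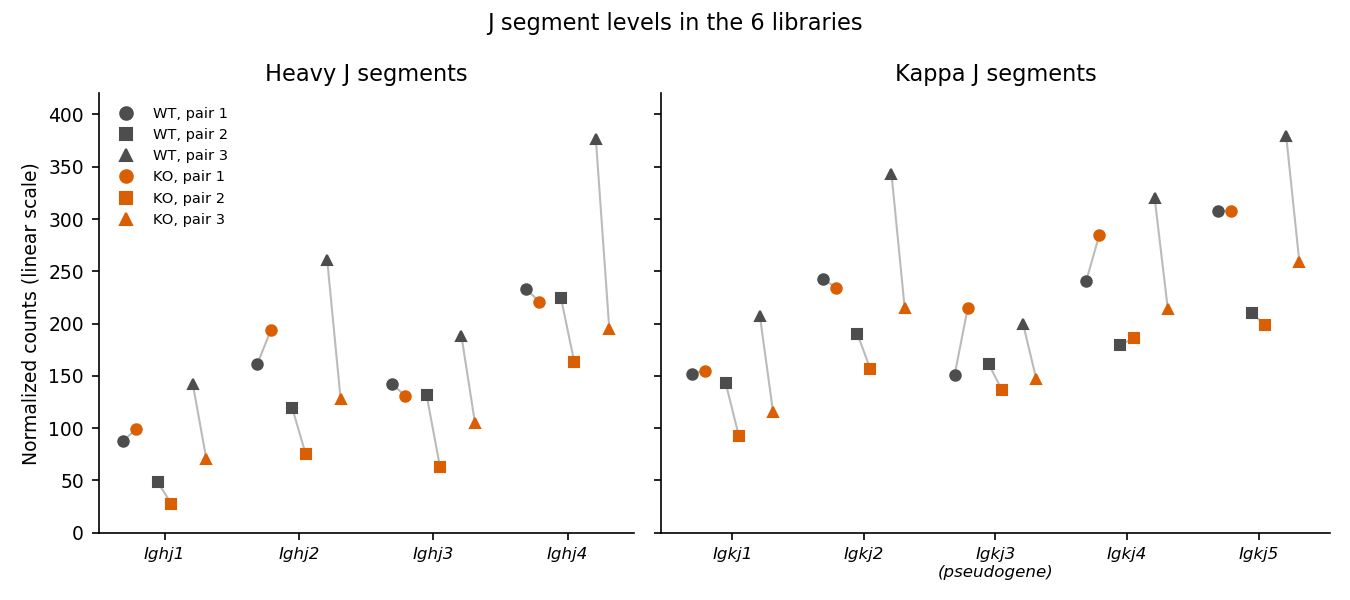
Normalized counts (y axis, linear from 0) of each J segment in the 6 libraries, with grey lines that join the WT and KO libraries of a pair. The lines fall steeply in pair 3 (triangles). In pair 1 (circles) they run nearly flat or rise, slightly at *Ighj1* and more at *Ighj2*, *Igkj3* and *Igkj4*. *Igkj3* is marked as a pseudogene, that is as non-functional.

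The summed heavy segments had 645, 329 and 499 normalized counts in the KO libraries of pairs 1, 2 and 3 and 625, 524 and 968 in the WT libraries. The KO library was thus slightly above its WT littermate in pair 1 and clearly below it in pairs 2 and 3, while the groups overlapped. The log2 ratios were 0.04, −0.67 and −0.95, with a mean of −0.53 ± 0.51 (SD, n = 3 pairs; exact permutation *p* = 0.50 within pairs, two-sided, where 3 pairs cannot give less than 0.25). Without replicate 3 the mean was −0.31 and without replicate 1 it was −0.81.

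*Ighj3* showed the lowest log2 fold change of the 8. It had 131, 62.9 and 105 normalized counts in KO (139, 66 and 116 fragments) and 143, 132 and 188 in WT (151, 126 and 156 fragments). The 3 KO values lay below the 3 WT values, but only by the gap between 131 and 132. The log2 ratios were −0.12, −1.07 and −0.83, giving −0.67 as the fitted log2 fold change (SE, the standard error, 0.19; limma adjusted *p* = 0.911). Without replicate 1 it was −0.94 with an adjusted *p* of 0.0293 from limma.

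*Ighj4*, the most counted heavy segment, had 221, 163 and 195 normalized counts in KO (234, 171 and 215 fragments) and 233, 225 and 377 in WT (247, 215 and 313 fragments). The groups did not overlap here either, which was so for 2 of the 8 segments, *Ighj3* and *Ighj4*, and for 3.44% of all genes in this direction. The log2 ratios were −0.08, −0.46 and −0.95, and the log2 fold change was −0.50 (SE 0.16; limma adjusted *p* = 0.970). Without replicate 3 it was −0.27.

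*Ighj2* had 193, 75.3 and 128 normalized counts in KO (205, 79 and 141 fragments) and 161, 119 and 261 in WT (171, 114 and 217 fragments). The KO library was the higher of pair 1 and the lower of the other pairs. The log2 ratios of 0.26, −0.66 and −1.03 gave a log2 fold change of −0.47 (SE 0.24; limma adjusted *p* = 0.970), which without replicate 1 was −0.84 with an adjusted *p* of 0.0438 and without replicate 3 was −0.20.

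*Ighj1* had the lowest counts of all members, with 99.1, 27.6 and 70.8 normalized counts in KO (105, 29 and 78 fragments) and 87.8, 48.1 and 142 in WT (93, 46 and 118 fragments). Its counting intervals were the widest, the log2 ratio of −0.80 in pair 2 having one of −1.52 to −0.10. Like *Ighj2*, it was higher in the KO library of pair 1 and lower in pairs 2 and 3, with a log2 fold change of −0.53 (SE 0.25; limma adjusted *p* = 0.970) that was −0.89 without replicate 1 and −0.30 without replicate 3.

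The summed kappa segments had 982, 633 and 804 normalized counts in the KO libraries and 943, 724 and 1250 in the WT libraries. The groups overlapped, and only pair 3 showed a large difference. The log2 ratios were 0.06, −0.19 and −0.64, with a mean of −0.26 ± 0.35 (SD, n = 3 pairs; exact permutation *p* = 0.50 within pairs, two-sided), and without replicate 3 the mean was −0.07. Whether the KO to WT ratio differed between heavy and kappa segments cannot be decided with 3 pairs. Heavy J fragments per 100 kappa J fragments were 65.7, 52.0 and 62.1 in KO and 66.3, 72.4 and 77.5 in WT. They were lower in KO in 3 of 3 pairs, narrowly in pair 1, and the groups did not overlap. The mean log2 ratio was −0.27 ± 0.24 (SD, n = 3 pairs), with an exact permutation *p* of 0.25, the smallest that 3 pairs allow.

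Of the functional kappa segments, *Igkj1*, the farthest from *Igkc*, had the lowest log2 fold change. The others did not follow the distance, with −0.33 for *Igkj2*, −0.10 for *Igkj4* and −0.21 for *Igkj5*. *Igkj1* had 155, 92.5 and 115 normalized counts in KO (164, 97 and 127 fragments) and 152, 143 and 207 in WT (161, 137 and 172 fragments). Pair 1 showed no difference, and the KO library was the lower of pairs 2 and 3, at log2 ratios of 0.03, −0.63 and −0.84. The log2 fold change was −0.48 (SE 0.18; limma adjusted *p* = 0.970), with −0.73 without replicate 1 and −0.30 without replicate 3.

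*Igkj2* had 234, 156 and 215 normalized counts in KO (248, 164 and 237 fragments) and 243, 190 and 343 in WT (257, 182 and 285 fragments). Every KO library was below its littermate, but the counting interval of the ratio included 0 in pairs 1 and 2. The log2 fold change was −0.33 (SE 0.13; limma adjusted *p* = 0.970), and −0.17 without replicate 3.

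*Igkj4* had 285, 186 and 214 normalized counts in KO (302, 195 and 236 fragments) and 241, 180 and 320 in WT (255, 172 and 266 fragments). It was higher in the KO library in pairs 1 and 2 and lower in pair 3. The log2 fold change of −0.10 (SE 0.16; limma adjusted *p* = 0.974) turned to 0.14 without replicate 3.

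*Igkj5*, the most counted member, had 308, 198 and 259 normalized counts in KO (326, 208 and 285 fragments) and 308, 210 and 379 in WT (326, 201 and 315 fragments). The littermates of pairs 1 and 2 were almost equal, and those of pair 3 were not, at log2 ratios of −0.00094, −0.08 and −0.55. The log2 fold change was −0.21 (SE 0.13; limma adjusted *p* = 0.970), and −0.04 without replicate 3. The non-functional *Igkj3* had log2 ratios of 0.51, −0.24 and −0.44 and a log2 fold change of −0.06 (SE 0.19; limma adjusted *p* = 0.989), which was 0.03 without replicate 2 and 0.13 without replicate 3.

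**Figure D3:**
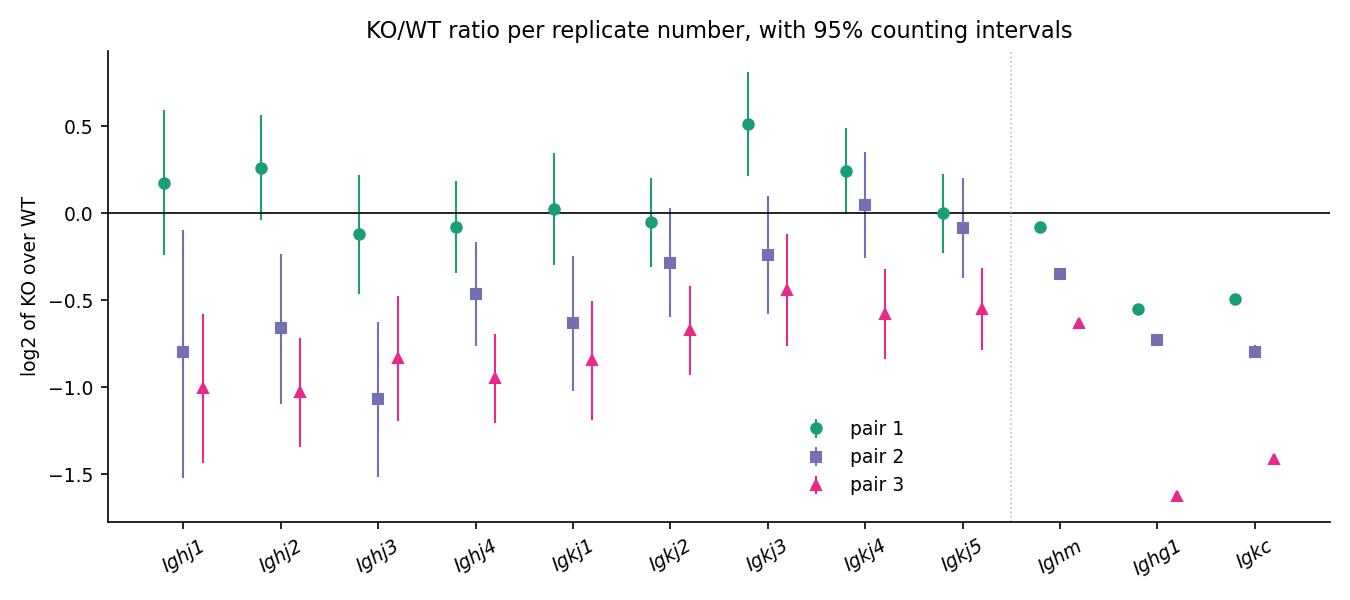
The log2 ratio of KO to WT normalized counts (y axis) in pairs 1, 2 and 3 for the J segments, *Igkj3* and, right of the dotted line, 3 constant genes, with bars for 95% intervals that cover counting error only. Pair 1 lies around 0 for the 8 J segments, pair 3 lies below 0 throughout, and *Ighm*, *Ighg1* and *Igkc* lie below 0 in all 3 pairs.

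Summed transcripts of plasma cell genes put the pairs in the same order as the summed heavy and the summed kappa segments. *Ighj3* did not have that order, being lowest in pair 2, at −1.07. The share of all genes with that order was not computed. The summed level of 6 plasma cell markers (*Sdc1*, *Prdm1*, *Xbp1*, *Irf4*, *Jchain* and *Tnfrsf17*) was 15767, 8049 and 10613 normalized counts in KO and 10895, 7906 and 18378 in WT. Its log2 ratios were 0.53, 0.03 and −0.79 in pairs 1, 2 and 3. Of the 6, 5 passed the filter and *Tnfrsf17* was at or near 0, with at most 1.89 normalized counts. Their part in the values of the J segments was not tested.

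The constant gene *Igkc* was lower in KO by more than the kappa J segments. It had 16879, 9681 and 14006 normalized counts in KO and 23749, 16808 and 37309 in WT, and its log2 fold change was −0.90 (SE 0.16; limma adjusted *p* = 0.693, and 0.00203 without replicate 1). For every 100 fragments on *Igkc* there were 5.81, 6.54 and 5.74 fragments on the 4 kappa segments in KO and 3.97, 4.30 and 3.35 in WT. This ratio was higher in KO in 3 of 3 pairs, the groups did not overlap, and the mean was 6.03 ± 0.44 in KO and 3.88 ± 0.48 in WT (SD, n = 3 each). The log2 differences were 0.55, 0.60 and 0.78, averaging 0.64 ± 0.12 (SD, n = 3 pairs), and the exact permutation *p* was 0.25 within pairs, the smallest that 3 pairs allow, and 0.10 between all KO and all WT libraries, the smallest that 3 against 3 allows. With 1 replicate left out the mean lay between 0.58 and 0.69. A ratio within a library does not depend on how the libraries are scaled.

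The heavy J segments did not differ between genotypes relative to the heavy constant genes beyond the spread of the pairs. For every 100 fragments on the 8 heavy constant genes, there were 0.820, 0.900 and 0.888 fragments on the heavy segments in KO and 0.685, 1.01 and 0.844 in WT. The groups overlapped, and the mean log2 difference was 0.06 ± 0.21 (SD, n = 3 pairs; exact permutation *p* = 0.75 within pairs, two-sided), or −0.044 without replicate 1. Against *Ighm* alone, which encodes the IgM constant region, the ratio was 1.13, 2.16 and 1.41 in KO and 1.04, 2.70 and 1.76 in WT, with a mean log2 difference of −0.17 ± 0.26 (SD, n = 3 pairs; exact permutation *p* = 0.50). The sign of the heavy comparison thus depended on the denominator, since *Ighg1*, with a log2 fold change of −0.97 (limma adjusted *p* = 0.693, and 0.00400 without replicate 1), was lower than *Ighm*, with −0.35.

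**Figure D4:**
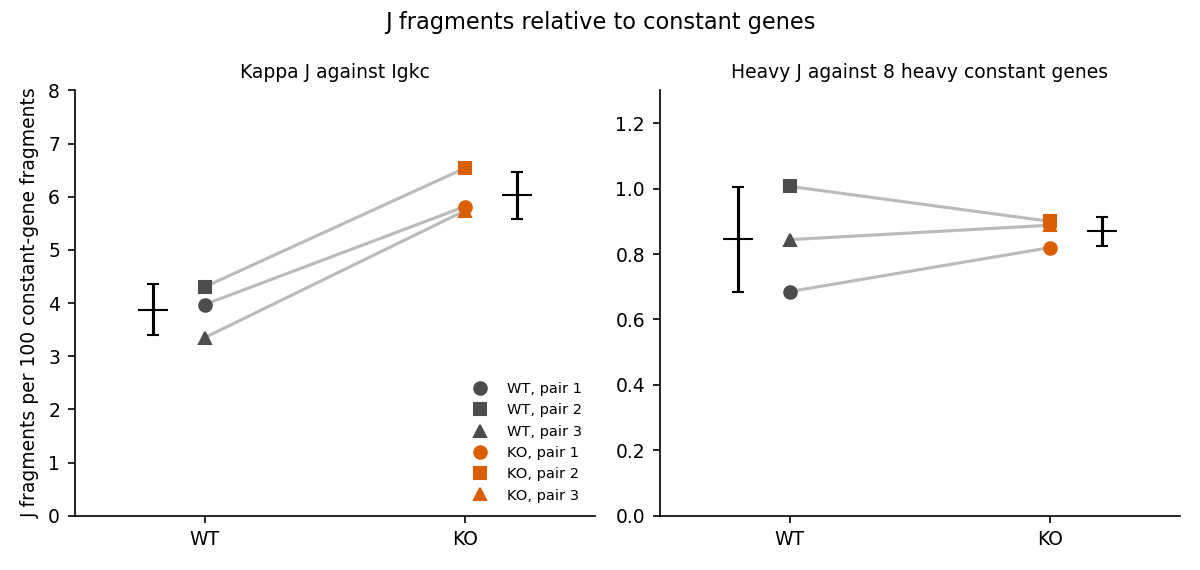
J fragments per 100 fragments on the constant genes of the locus (y axis, from 0) in each library, with grey lines that join the libraries of a pair and black bars for the mean ± SD of 3 libraries. For kappa (left) the 3 KO libraries, at 5.74 to 6.54, lie above the 3 WT libraries, at 3.35 to 4.30, while for heavy (right) the groups overlap.

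Among the J fragments of the heavy locus, the shares of *Ighj1*, *Ighj2* and *Ighj4* differed more between pairs than between genotypes. That of *Ighj3* was lower in KO in pairs 1 and 2 and higher in pair 3. *Ighj4* took 34.3%, 49.6% and 39.1% in KO and 37.3%, 42.9% and 38.9% in WT, with 95% Clopper-Pearson intervals of 30.7% to 38.0% in the KO library of pair 1 and 44.2% to 55% in that of pair 2, which do not overlap. *Ighj1* took 15.4%, 8.41% and 14.2% in KO and 14%, 9.18% and 14.7% in WT, so that pair 2 was low in both genotypes. *Ighj2* took 26.2% ± 3.6 in KO and 25.2% ± 2.2 in WT, and *Ighj3* 20.2% ± 0.99 and 22.5% ± 2.9 (SD, n = 3 each). The mean difference between KO and WT was 0.02 percentage points for *Ighj1*, 0.99 for *Ighj2*, −2.3 for *Ighj3* and 1.3 for *Ighj4*, each within the spread of the 3 pairs (SD of 1.1, 2.9, 3.9 and 4.9) and with exact permutation *p*-values of 0.50 to 1.00 within pairs. The sign was the opposite without replicate 1 for *Ighj1* (−0.64) and *Ighj2* (−0.60) and without replicate 2 for *Ighj4* (−1.4), and the difference for *Ighj3* was −0.39 without replicate 2 and −4.2 without replicate 3.

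In the kappa locus the shares of 3 segments differed from WT in the same direction in each pair. *Igkj4* took 29.0%, 29.4% and 26.7% in KO and 25.5%, 24.9% and 25.6% in WT. It was higher in KO in 3 of 3 pairs, by 3.0 ± 1.8 percentage points (SD, n = 3 pairs), and the 2 groups did not overlap, although the intervals of the littermates did. *Igkj1* took 15.8%, 14.6% and 14.4% in KO and 16.1%, 19.8% and 16.6% in WT, and its groups did not overlap either. It was lower in KO in 3 of 3 pairs by a mean difference of −2.6 ± 2.4 percentage points, which was −1.3 without replicate 2. *Igkj2* took 23.8%, 24.7% and 26.8% in KO and 25.7%, 26.3% and 27.5% in WT, also lower in 3 of 3 pairs, with a mean difference of −1.4 ± 0.63 percentage points. *Igkj5* took 31.3%, 31.3% and 32.2% in KO and 32.6%, 29.0% and 30.3% in WT and was lower in KO in pair 1 and higher in pairs 2 and 3, by a mean of 0.95 percentage points that ran from 0.29 without replicate 2 to 2.1 when replicate 1 was left out. The exact permutation *p* within pairs was 0.25 for *Igkj1*, *Igkj2* and *Igkj4*, the smallest that 3 pairs allow, and 0.50 for *Igkj5*, and 0.667 was the lowest value after Benjamini-Hochberg adjustment over the 8 segments. The shares of a locus add up to a whole, so these differences are not independent of each other.

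**Figure D5:**
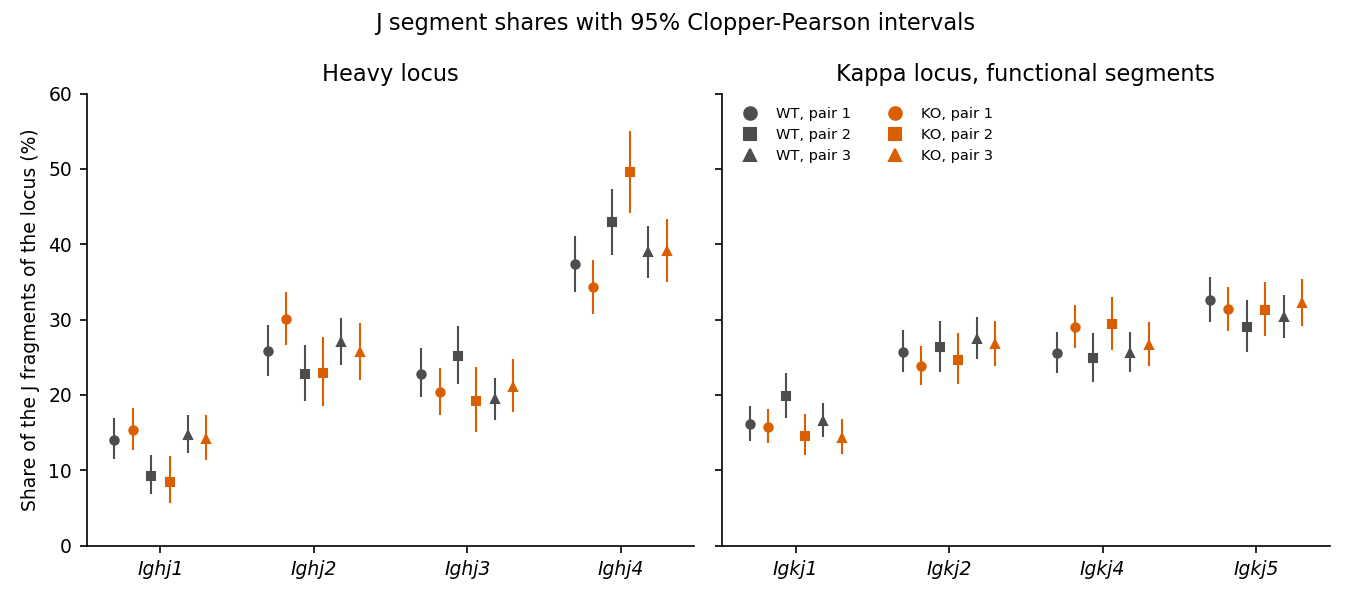
Share of each segment among the J fragments of its locus (y axis, percent) in the 6 libraries, with 95% Clopper-Pearson intervals that cover counting error only. Among the heavy shares (left), pair 2 (squares) is the lowest at *Ighj1* and the highest at *Ighj4* in each genotype. Only at *Ighj4* in KO is its interval clear of those of both other pairs. In the kappa locus (right) *Igkj4* is higher and *Igkj1* lower in KO than in WT in each pair.

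The J segments varied together over the 6 libraries. Pearson's *r* of log2(normalized count + 1) was 0.82 to 0.98 between the heavy segments, 0.79 to 0.96 between the kappa segments and 0.70 to 0.97 between a heavy and a kappa segment, over points that share littermates and batches. The genes whose pattern was most like the heavy sum were *Actr10* (*r* = 0.996), *Rasgrp3* (0.994), *2810002D19Rik* (0.992), *Txnl4b* (0.991) and the heavy V gene *Ighv6-3* (0.990). Those most like the kappa sum were *Clptm1l* (*r* = 0.996), *Nsf* (0.994), *Zfand2a* (0.993), *Creld2* (0.993) and the heavy V gene *Ighv2-3* (0.991). Among 12318 genes, *Igkc* ranked 373 by likeness to the kappa sum (*r* = 0.909), and *Ighm* ranked 788 by likeness to the heavy sum (*r* = 0.807). With 6 libraries such values arise easily among so many genes.

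Of 5 lambda J genes, 3 passed the filter. *Iglj1* had 100, 107 and 96.2 normalized counts in KO and 119, 141 and 131 in WT, with a log2 fold change of −0.36 (SE 0.12; limma adjusted *p* = 0.970) and log2 ratios of −0.25, −0.40 and −0.45 in the 3 pairs. *Iglj3* and *Iglj3p* had log2 fold changes of −0.18 and −0.36, *Iglj4* had at most 2.09 normalized counts and *Iglj2* was at 0 in the 6 libraries. The lambda segments are paralogs that may share reads, and their values are uncertain for that reason. Of the 8 heavy constant genes tested, 7 were below 0 and *Ighd*, which encodes the IgD constant region, was above it, at 0.37, with 0 called. The sign for *Ighd* rests on pair 3, its log2 ratios being 0.18, −0.72 and 1.66.

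Genes that carry out V(D)J recombination and end joining were also followed. Recombination sets J usage in the developing B cell, whereas the levels here are those of splenic B cells after 7 days in culture. Any relation of these levels to the J shares was not tested. *Rag1* and *Rag2*, the recombinase, were at 0 in the 6 libraries, where a count of 0 allows up to 3 fragments, and *Dntt*, which adds nucleotides at the junctions, had fragments in 1 library, the WT library of pair 3 (5 fragments). The other 14 of the 17 genes were tested. None was called by limma, edgeR or DESeq2, with 0 of 14 at an unadjusted *p*-value under 0.05 in limma, 10 above 0 and 4 below, a median log2 fold change of 0.08, and 4 higher in all 3 pairs, where 11.7% of all genes were. *Prkdc*, the DNA-dependent protein kinase, had 1335 ± 17.9 normalized counts in KO and 1279 ± 88.9 in WT (SD, n = 3 each), and *Xrcc6*, which encodes Ku70, 372 ± 48.3 and 358 ± 34.8. The log2 fold changes of the list ran from −0.11 for *Poll* to 0.41 for *Nhej1*.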

How the data were processed

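Per the methods of the study and the labels, the authors trimmed reads with cutadapt (quality 20, minimum length 30), aligned them with STAR 2.6.1a to GRCm38 (mm10), counted strand-specific fragments on exons with featureCounts of Subread 1.6.3 (mapping quality of at least 10, Gencode vM19), and scaled each library by its DESeq2 size factor. What was deposited is thus a signal in units of scaled fragment counts. All values above 0 (100%) were whole multiples of the value of 1 fragment in their library, within 1e-06 of a fragment, which gave back the fragments.

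Symbols and exons came from Gencode vM21, which matched 54409 of 54446 identifiers. Exons may differ from vM19. Genes with a mean of at least 10 were fitted with limma 3.58.1 (R 4.3.3) on log2(normalized count + 1), with condition and replicate number. Alternatives were other pseudocounts, filters and scalings, no block, edgeR 4.0.16, DESeq2 1.42.0 and fits without 1 replicate. The fits were tested on simulated data.

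Littermates pair the samples. The deviations of paired libraries from their group means correlated by 0.328, 0.685 and 0.170 in pairs 1, 2 and 3, and the main tests use the pairing. No libraries were duplicates (chi-square per gene of 4.82 to 24.3 over 15 combinations). The littermates of pairs 1 and 2 were the most alike by this measure, at 6.20 and 4.82. Those of pair 3 were not, at 17.8, where the KO library of pair 3 and the WT library of pair 1 were at 11.9. *P*-values measure the spread between these animals' cultures. Intervals and floors cover counting error only. The members and gene lists were chosen with earlier results of these data known, and the genes named are the members, the other J and constant genes, recombination genes, *Tent5c*, the 5 genes most like each J sum and cell markers. The recombination signal sequences beside the segments are not analysed here.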

Additional observations from a re-analysis of the deposited data

How the results depend on the processing

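In all 3 other scalings, which moved the median of all genes by 0.03 at most on the log2 scale, 51 of 51 values had the direction and the call of the main test. Without the replicate block this held for 27 of 27 results, with adjusted *p*-values of 1.00 for the 8 segments in limma and exact *p*-values of 0.10 to 1.00 for the shares. The number of genes called was 0 in limma and edgeR and 22 lower and 1 higher in DESeq2, and 0 to 168 lower and 0 to 3 higher with 1 replicate left out. Log2 fold changes ran from −0.84 to −0.20 for *Ighj2*, −0.94 to −0.47 for *Ighj3*, −0.27 to 0.14 for *Igkj4*, −0.34 to 0.13 for *Igkj3* and −0.033 to 0.52 for *Tent5c* with 1 replicate left out, and *Ighj2* and *Ighj3* passed the threshold without replicate 1, in the fit that called 168 genes lower (1.36%). The heavy J to constant ratio ran from −0.044 to 0.17, and was −0.17 against *Ighm* alone. The share differences ran from −0.64 to 0.42 percentage points for *Ighj1*, −0.60 to 2.2 for *Ighj2* and −1.4 to 3.4 for *Ighj4*, which was −0.11 with fragments pooled over libraries. Those for *Ighj3* ran from −4.2 to −0.39, for *Igkj1* from −3.7 to −1.3 and for *Igkj5* from 0.29 to 2.1, and *Igkj5* was at 0.22 with *Igkj3* in the denominator. With a filter at a mean of 50, no J segment passed, and the lowest adjusted *p* in limma was 0.873 for *Ighj3*. Of all values under an alternative, 246 held in direction and call, 10 changed direction, 4 passed the threshold where the main test had not, and 5 counts moved. The cause was not tested. Depth limits *Ighj1* most, with 29 fragments in 1 library.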
